A study of Mus musculus with 2 samples.

Results

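*Nrf1*, *Zfx*, *Yy1*, *Sp1*, *Sp3*, *Nfya*, *Nfyb*, *Nfyc*, *Gabpa* and *Elf1* encode transcription factors that bind close to the start sites of many genes, and their own promoters were examined here for reads precipitated with Zfp322a antibody. These 10 genes, of 22359 protein-coding genes in the annotation, were named in advance as a group, and the naming was made with earlier results of the same reads known: the group was chosen by what its proteins do and by the measured Zfp322a and IgG reads at TSSs, those of *Nrf1* and *Zfx* above all. The folds below therefore describe the members and test nothing. Chromatin came from E14, a mouse ES cell line labelled with the background strain C57BL/6, cultured with LIF, and no transgene or knock-down is named for it. The ChIP library was made with an anti-ZNF322 antibody (sc-102205), named after the human counterpart of Zfp322a, and the control library with anti-Rabbit IgG (sc-2027). Each antibody has 1 library, so no difference below has a replicate check, no p-value is given, and every interval covers counting error only. The libraries hold DNA and no RNA, so the labelled cell type could not be checked against expressed markers, and no value here is a level of transcription.

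Factors of this class act at short sequences within CpG-rich promoters. Sp1 and Sp3 are zinc finger proteins that bind GC boxes. Nfya, Nfyb and Nfyc form the trimer NF-Y, which binds CCAAT boxes, with Nfya giving the sequence contact and the other subunits folding like histones. Gabpa and Elf1 have the ETS domain and bind around a GGAA core, and Gabpa works with a partner subunit. Nrf1, nuclear respiratory factor 1, switches on nuclear genes for mitochondrial respiration. Yy1 is a zinc finger protein that activates or represses, and Zfx, encoded on the X chromosome, is a zinc finger factor needed for self-renewal of ES cells.

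Mapped reads numbered 5187475 for Zfp322a and 4843481 for IgG. Those with a mapping quality of 25 or more were used, 4151151 and 3877802. They were counted from -1000 to +1000 bp of the transcription start site (TSS), and where a gene has several protein-coding TSSs the one with the most reads of both libraries together was taken. The fold per read is the Zfp322a count over the IgG count, divided by the ratio of the libraries on the same chromosome. That ratio was 1.07 over all chromosomes and 1.41 on chromosome X, where *Zfx* lies, and it ran from 0.920 to 1.20 on the chromosomes of the other members. A binding site is a stretch where reads extended to 300 bp reached a height of at least 9 in the Zfp322a library and at least 3 times the IgG height, the height and fold criteria of the study.

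The sequence of 200 bp around the Zfp322a summit, the base with the greatest height, is shown for 5 members that span the range of folds. *Zfx* and *Nrf1* are the pair with the highest folds, *Elf1* is next in order, *Nfyc* carries a small site, and *Yy1* has the lowest fold. Each was read from mm9 on the strand of the gene, from 5′ to 3′. Capitals mark the word AGGCC or its reverse complement GGCCT, which was picked out after the *Zfx* and *Nrf1* sequences had been seen.
Zfx, chrX:91368219-91368418, minus strand: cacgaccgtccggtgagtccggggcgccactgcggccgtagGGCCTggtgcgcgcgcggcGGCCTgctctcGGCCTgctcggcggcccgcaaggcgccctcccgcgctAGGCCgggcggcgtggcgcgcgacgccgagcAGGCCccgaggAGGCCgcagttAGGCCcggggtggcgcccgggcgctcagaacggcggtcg
Nrf1, chr6:29998226-29998425, plus strand: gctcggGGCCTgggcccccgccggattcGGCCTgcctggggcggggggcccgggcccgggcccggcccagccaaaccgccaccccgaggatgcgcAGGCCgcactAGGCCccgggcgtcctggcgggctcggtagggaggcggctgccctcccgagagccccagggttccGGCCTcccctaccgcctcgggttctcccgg
Elf1, chr14:79880486-79880685, plus strand: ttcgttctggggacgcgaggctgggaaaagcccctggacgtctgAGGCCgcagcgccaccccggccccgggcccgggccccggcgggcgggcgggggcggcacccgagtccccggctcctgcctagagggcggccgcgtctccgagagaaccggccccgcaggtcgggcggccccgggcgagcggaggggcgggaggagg
Nfyc, chr4:120498005-120498204, minus strand: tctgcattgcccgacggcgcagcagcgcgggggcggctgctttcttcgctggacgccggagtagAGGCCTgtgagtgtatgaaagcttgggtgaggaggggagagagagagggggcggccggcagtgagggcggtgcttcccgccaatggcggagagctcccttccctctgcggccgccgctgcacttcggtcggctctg
Yy1, chr12:110030516-110030715, plus strand: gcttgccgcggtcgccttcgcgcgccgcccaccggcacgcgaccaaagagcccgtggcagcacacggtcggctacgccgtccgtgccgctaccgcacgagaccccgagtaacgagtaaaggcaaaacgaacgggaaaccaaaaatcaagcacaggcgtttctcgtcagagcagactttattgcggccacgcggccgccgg
The *Zfx* sequence holds 7 matches to the word and the *Nrf1* sequence 5. In both, some matches lie only a few bases apart and others farther away. The *Elf1* sequence has 1 match and 6 GC boxes (GGGCGG on either strand). In *Nfyc* the 2 matches are the same palindrome, AGGCCT, read on each strand. *Yy1* has none.

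*Zfx* had the most Zfp322a reads of the members. In its window lay 120 reads with the Zfp322a antibody against 8 with IgG, which gave a fold of 10.6 (95% interval 5.22 to 25.2). Scaled by the library totals in place of the chromosome X ratio, the same counts gave 14.0. The TSS lies at 91368448 on the minus strand, and the stretch of raised reads ran from 91367612 to 91369179, over 1568 bp, with a height of 46 reads against 3. The summit lay 129 bp downstream of the TSS, in an intron of the gene. Reads lay on both sides of the start, with 48 upstream and 72 downstream. Whether they came from a narrow point or from a wider part of the promoter was not tested. *Zfx* ranked 22 from the top among the 16368 protein-coding genes with at least 10 reads in both libraries together, and 3 of the 409 such genes on chromosome X, *Zfx* included, had a fold as high, and the others of these had far fewer reads. The median fold on that chromosome was 1.53.

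*Nrf1* came next, with 62 Zfp322a and 9 IgG reads and a fold of 6.44 (3.18 to 14.8), rank 95 from the top. Its reads lay almost all downstream of the TSS at 29997988 on chromosome 6, with 53 of the Zfp322a reads downstream and 9 upstream. The summit, of 36 reads against an IgG maximum of 4 in the window, was 338 bp downstream in an intron. The stretch spanned 677 bp, from 29997942 to 29998618, and was shorter than that of *Zfx*. The ratio of the *Zfx* fold to the *Nrf1* fold was 1.65 with an interval from 0.533 to 5.16, so which of them is higher cannot be read from these counts.

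*Yy1* had the lowest fold of the group. It had 14 reads in the Zfp322a library and 15 in the IgG library, a fold of 1.01 (0.454 to 2.25), and the greatest Zfp322a height in its window was 5 against 4. At this depth no Zfp322a excess was detectable there. Its window has the highest GC content of the members, 69.2%.

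**Figure D1:**
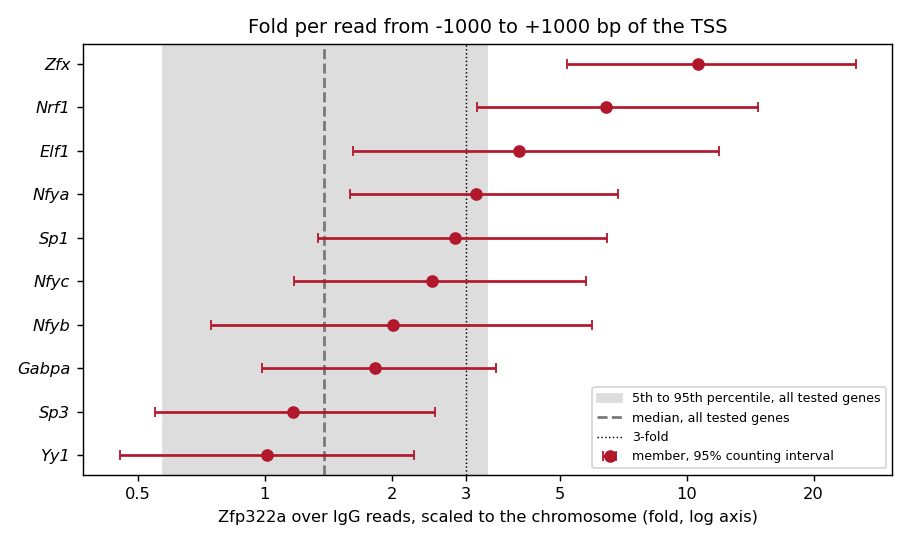
Fold of Zfp322a over IgG reads from -1000 to +1000 bp of the TSS for each member on a log axis, with exact 95% counting intervals (points and bars), beside the median (dashed) and the 5th to 95th percentile (grey) of all tested genes. *Zfx* at 10.6 and *Nrf1* at 6.44 are the only members with a whole interval to the right of the dotted line at 3-fold.

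The Sp genes differed in their counts, but not beyond counting error. The *Sp1* window held 30 Zfp322a and 10 IgG reads, giving 2.82 (1.34 to 6.47). The *Sp3* window held 18 and 14, a fold of 1.17 (0.549 to 2.54). Their ratio was 2.42 with an interval from 0.795 to 7.43. *Sp1* had a stretch from 102235990 to 102236289 on chromosome 15, with its summit at -454 bp from the TSS and a height of 12 reads, but IgG reached 6 in the same stretch, so the fold of heights was 2 and the stretch was no site. A further stretch that met both criteria lay 2575 bp downstream of the *Sp1* TSS, with 9 reads against 1, outside the promoter window. *Sp3* reached a height of 7 against 6.

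The NF-Y subunit genes ran in the order *Nfya*, *Nfyc*, *Nfyb*. *Nfya*, the subunit that reads the CCAAT box, held 39 Zfp322a and 11 IgG reads, a fold of 3.18 (1.59 to 6.87). Its reads formed a low and wide stretch of 895 bp with peaks on both sides of the TSS, a maximum of 11 reads against 4 and a fold of heights of 2.75, just short of a site. The authors' deposited regions do include it, with 30 reads from 48548782 to 48550043 on chromosome 17.

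*Nfyc* held 27 and 10 reads, a fold of 2.50 (1.17 to 5.78), with a site of 135 bp from 120498076 to 120498210 on chromosome 4 that lay exactly at both limits, a height of 9 against 3. *Nfyb* held 13 and 7 reads, a fold of 2.01 (0.746 to 5.96), and its height of 8 reads fell short of the minimum. The ratio of *Nfya* to *Nfyb* was 1.58 and that of *Nfya* to *Nfyc* 1.27, and the interval of each included 1. Nothing in these counts therefore separates the subunits of the trimer.

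Of the ETS genes, *Elf1* had the higher fold. *Elf1* held 26 Zfp322a and 6 IgG reads, a fold of 4.02 (1.62 to 11.9). *Gabpa* held 35 and 16, a fold of 1.82 (0.983 to 3.53). The ratio of the folds was 2.20 with an interval from 0.690 to 7.79. *Elf1* had a site from 79880520 to 79880819 on chromosome 14, with 13 reads against 1 and its summit at -415 bp. *Gabpa* reached the same height of 13 reads, at 103 bp downstream, where the IgG height was 4. Within the same stretch IgG reached 7, upstream of the TSS, and the fold of heights was 1.86. *Gabpa* is the member with the most IgG reads, so equal Zfp322a heights went with unequal folds.

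**Figure D2:**
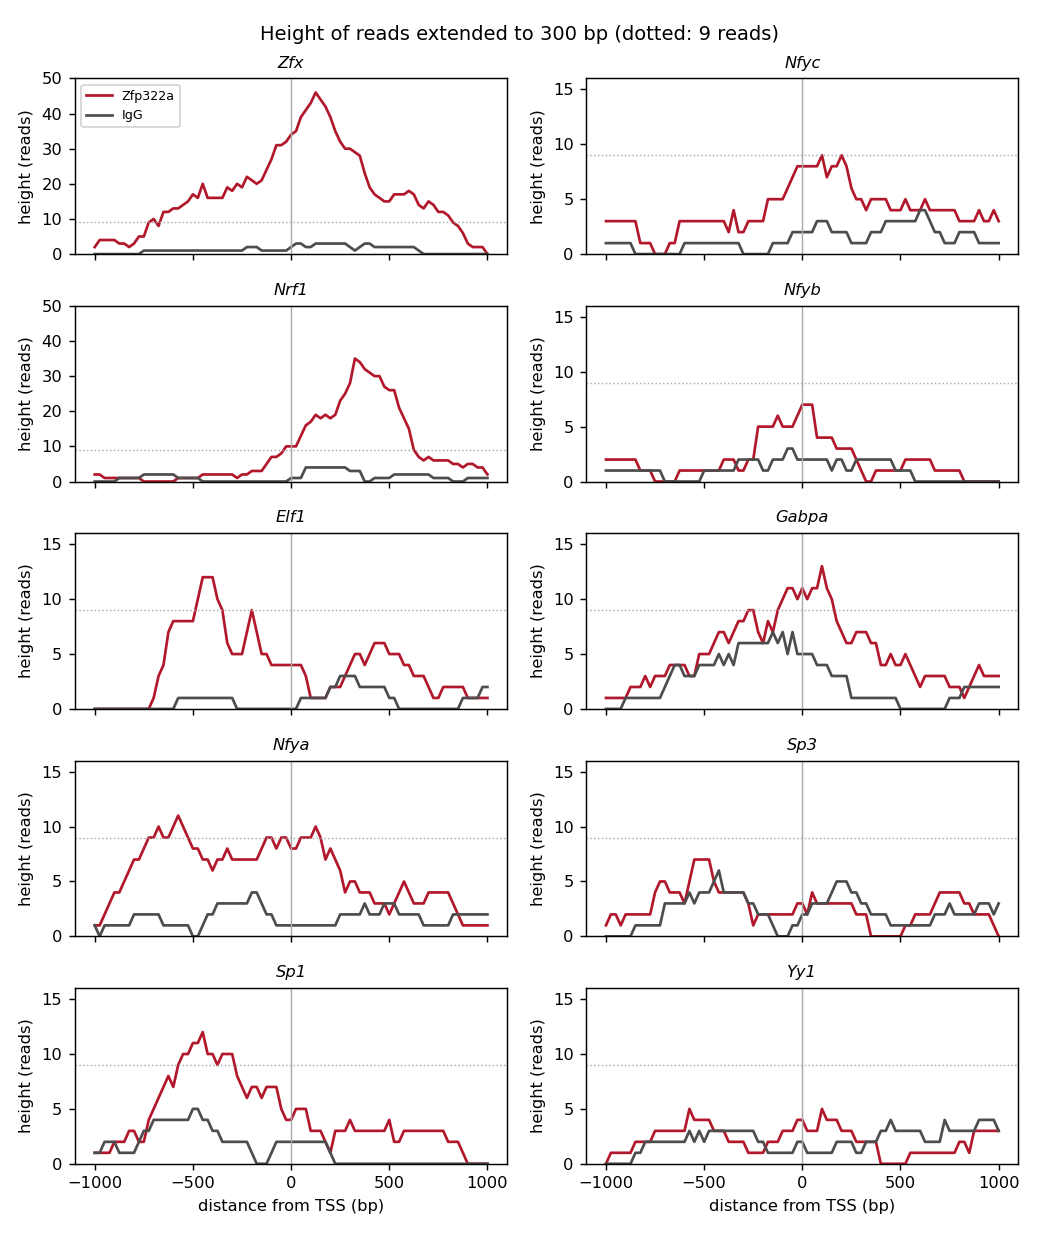
Height of reads extended to 300 bp, drawn every 25 bp against the distance from the TSS, for the Zfp322a (red) and IgG (grey) libraries; panels are in order of fold, the dotted line marks 9 reads, and *Zfx* and *Nrf1* have a larger vertical scale. *Zfx* rises over the TSS, *Nrf1* downstream of it, *Elf1* and *Sp1* upstream, while the curves of *Sp3* and *Yy1* overlap those of IgG.

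Put together, 4 of the 10 members reached a fold of 3, namely *Zfx*, *Nrf1*, *Elf1* and *Nfya*, where 6.87% of all tested genes did. A binding site overlapped the window of 4 members, *Zfx*, *Nrf1*, *Elf1* and *Nfyc*, against 16% of all tested genes, and a region deposited by the authors overlapped 5, these 4 and *Nfya*, against 4.33%. The members were chosen by measures of the same contrast, so nothing is read from these shares. *Nfya* at 3.18 lay just inside the limit of 3-fold and *Sp1* at 2.82 just outside. The median fold of the members was 2.66, beside 1.38 for all tested genes, and 8 of the 10 lay above that median.

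IgG reads ran from 6 to 16 over the members and Zfp322a reads from 13 to 120. The Zfp322a counts thus had the wider range, but IgG counts moved the order too, since *Gabpa* had more Zfp322a reads than *Elf1* or *Sp1* and a lower fold. In the order of folds, *Zfx*, *Nrf1*, *Elf1*, *Nfya*, *Sp1*, *Nfyc*, *Nfyb*, *Gabpa*, *Sp3* and *Yy1*, the interval of the ratio included 1 for each of the 9 pairs of neighbours. Of all 45 pairs, 12 had an interval that excluded 1, and *Zfx* or *Nrf1* was in 10 of these 12. The remaining pairs were *Elf1* over *Yy1*, with a ratio of 3.96 (1.11 to 15.1), and *Nfya* over *Yy1*, with 3.13 (1.04 to 9.46). By these intervals *Zfx* and *Nrf1* lay above much of the lower end of the list, and *Elf1* and *Nfya* above *Yy1*. No other pair was set apart. The intervals were not adjusted for the 45 pairs. The members, *Zfx* and *Nrf1* above all, were also chosen with these reads known, so the exclusions are a description and no test. At *Elf1* the raised counts extend far beyond the promoter, as given below.

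Whether the excess was local to the promoter was read from the surroundings. From 1 to 10 kb on either side of the TSS, 9 members had folds from 0.706 to 1.33, beside a median of 1.08 over all tested genes. The lowest was *Gabpa*, with 44 and 52 reads and an interval from 0.461 to 1.07, below that median. *Zfx* had 33 Zfp322a and 22 IgG reads there, a fold of 1.06 (0.601 to 1.91), and the window over its own surroundings gave 10 (3.80 to 28.0). *Nrf1* had 47 and 33, and the window over surroundings gave 4.84 (2.0 to 12.5). *Nfya*, *Gabpa* and *Nfyc* gave 3.37, 2.59 and 2.54, with lower bounds of 1.5, 1.20 and 1.05. For *Gabpa* this sets a window fold of 1.82 against its low surroundings. Over all tested genes the median of this ratio was 1.27, so a window somewhat above its surroundings was usual. The lower bounds of *Zfx*, *Nrf1* and *Nfya* lay above that median, and those of the other members did not.

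*Elf1* was the exception. Its surroundings from 1 to 10 kb held 69 Zfp322a and 22 IgG reads, a fold of 2.91 (1.78 to 4.94), and only 24 of the 16368 tested genes had surroundings that high. From 10 to 60 kb on either side it held 215 and 89 reads, a fold of 2.24 (1.74 to 2.90), above 99.8% of tested genes, where the other members ran from 0.965 to 1.31. Set against its surroundings within 10 kb, the *Elf1* window gave 1.38 (0.471 to 4.63). The raised counts at *Elf1* thus extend far beyond its promoter, and an excess of the window over this level was not detectable at this depth. What raises the whole stretch was not tested.

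**Figure D3:**
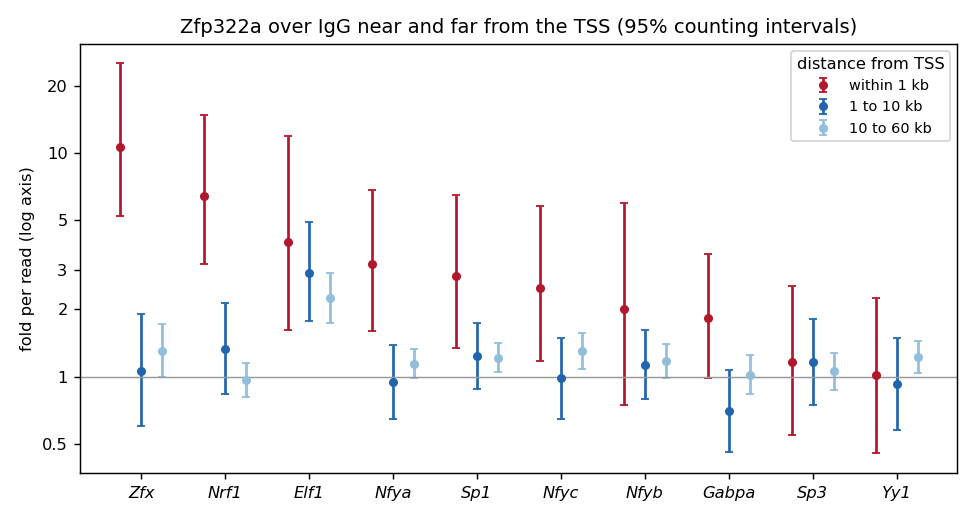
Fold of Zfp322a over IgG reads, scaled to the chromosome, within 1 kb of the TSS (red), from 1 to 10 kb (blue) and from 10 to 60 kb (light blue) on a log axis with exact 95% counting intervals. *Zfx* and *Nrf1* fall to about 1 outside the window, while *Elf1* keeps 2.91 and 2.24.

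The members also have other protein-coding TSSs more than 1 kb from the one used. Any within 1 kb of a TSS already taken were left out, and 12 remained. At *Sp1* and *Sp3* these lie 1126 and 1455 bp downstream, so their windows overlap the one used. The folds of the 12 ran from 0.234 to 3.13. At *Nrf1*, 3 internal TSSs held 2 to 5 Zfp322a reads each, with folds of 1.17, 0.234 and 1.56. At *Zfx*, the TSS 20725 bp downstream held 2 Zfp322a and 3 IgG reads, a fold of 0.472 (0.0394 to 4.12). No excess was detectable at the internal starts of these genes, but most of the intervals are too wide to exclude one. The TSS used was taken because it had the most reads, so lower counts at the others follow from that choice. *Nfya* had 14 and 4 reads at a TSS 9221 bp downstream, a fold of 3.13 (0.984 to 13.1). For *Nfyc* the excess depends on the choice of TSS. At its outermost TSS, -5888 bp from the one used, 3 Zfp322a and 7 IgG reads gave 0.396 (0.0661 to 1.74). That interval includes 1, so no excess was detectable there and no opposite direction is shown.

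Summits fell on both sides of the TSS, 5 upstream and 5 downstream. *Nfyb*, *Gabpa*, *Zfx*, *Nfyc* and *Nrf1* had summits from 7 to 338 bp downstream, in the 5′ UTR or an intron. *Sp1*, *Elf1*, *Sp3*, *Yy1* and *Nfya* had summits upstream, from -415 bp at *Elf1* to -579 bp at *Nfya*, with *Sp1* at -454, *Sp3* at -513 and *Yy1* at -567. No summit lay between these ranges, though at *Sp3*, *Yy1* and *Nfyb* the summit rests on heights of 5 to 8 reads.

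At 3 members a gene on the opposite strand starts within 1000 bp, which holds for 14.4% of all tested genes. *Nfya* shares its promoter with *AI314976*, whose nearest TSS is at -249 bp, and the *Nfya* summit lies beyond that start. *Gabpa* shares it with *Atp5j*, which encodes a subunit of the mitochondrial ATP synthase and has 4 coding TSSs from -885 to 501 bp. *Elf1* shares it with *Wbp4*, a spliceosome protein gene that starts at 74 bp and runs back across the *Elf1* summit. Reads at these promoters cannot be assigned to either gene of the pair. Over all tested genes the median fold was 1.61 with such a partner and 1.34 without.

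In a ChIP library, forward reads pile up before a bound point and reverse reads after it. At *Zfx* the median positions of the 41 forward and 28 reverse Zfp322a reads within 300 bp of the summit were 104.5 bp apart in this order. At *Nrf1* the distance was 94.5 bp, from 28 and 19 reads. At *Elf1* it was 65.5 bp, from 9 and 8. All 205 genome-wide sites with a height of at least 20 had a median of 136.5 bp (quartiles 103.5 and 176), so *Zfx* lay just inside the lower quartile and *Nrf1* just below it.

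The other members had distances from 77 bp at *Yy1* to 315 bp at *Nfyc*, the latter from 5 forward and 7 reverse reads. The order was forward before reverse at all 10 members, but the IgG reads of the members had it too wherever both strands were present, except at *Nfyb* with -123.5 bp. The order by itself therefore does not tell the libraries apart. By the Mann-Whitney U test of strand separation that the study used, run here on the reads within 300 bp of the summit, *Nrf1* was the only member whose site passed. The sites of *Zfx*, *Elf1* and *Nfyc* did not. Regions deposited from the authors' own peak detection do overlap the windows of *Zfx*, *Elf1* and *Nfyc*. Failing the version run here thus does not show that these sites fail the test of the study. With this test 4.42% of all tested genes kept a site, against 16% without it.

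The order of the folds was not the order of GC content. GC content of the windows ran from 56.3% at *Nfyc* to 69.2% at *Yy1*, all above the median of 53.9% over all tested genes. The median ratio of observed to expected CpG was 0.821 for the members and 0.582 for all tested genes, so the members are CpG-rich promoters as a group. The members in the most GC-rich of 10 bins of genes were *Nrf1*, *Zfx*, *Yy1*, *Sp3* and *Elf1*, which include the highest and the lowest folds. The median fold of that bin was 1.36, close to the 1.38 of all tested genes. Divided by the median of its bin, the fold was 7.81 for *Zfx*, 4.74 for *Nrf1*, 2.95 for *Elf1* and 2.25 for *Nfya*. Of the members only *Zfx* and *Nrf1* then reached 3-fold. The part of GC content in the folds was not tested.

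The words that the members' own proteins recognise were looked up in the windows, on both strands and in their plain letters. The NRF1 word GCGCATGC was in none of the 10 windows, *Nrf1* included, and in 8.93% of all tested windows. The ZFX word AGGCCT, whose letters include AGGCC, was in 6 windows, among them 1 match in *Zfx* at 343 bp, and in 53.0% of all. The YY1 word ATGGCGGC was in the windows of *Zfx*, with 3 matches, and *Nfyc*, with 2, but not of *Yy1*, and in 10.9% of all.

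The SP word GGGCGG was in all 10 windows and in 83.8% of all tested windows, and *Sp1* had the most with 22. The NFY word CCAAT was in 9 of the windows, all but *Elf1*, and in 89.5% of all. *Sp1* had 9 of them, *Nfyc* 7 and *Nfya* 5. The ETS word CCGGAAG was in *Gabpa*, with 2 matches, and *Sp3*, with 1, and in 31.0% of all. The presence of most of these words was common to promoters in general, and a missing word says only that its letters are not in the window.

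The word marked in the printed sequences was counted in the same way around the summits of stretches within 1000 bp of the TSSs of other protein-coding genes. Sites and stretches farther from these TSSs were left out of this count. The summits of *Zfx* and *Nrf1*, with 7 and 5 matches in 200 bp, were followed by *Nfyb* and *Nfyc* with 2. *Sp3*, *Nfya*, *Gabpa* and *Elf1* had 1, and *Yy1* and *Sp1* had none. Such sites with a height of at least 20 had a mean of 2.94 matches (n = 166) and 32.5% of them had at least 4. Sites with a height of 9 to 19 had a mean of 1.32 (n = 2250), and 7.69% had at least 4. Stretches of the same minimal height but under 1.5-fold over IgG had 1.05 (n = 370), and windows of 200 bp centred on TSSs had 0.753 (n = 16358). High sites thus held more of the word than low ones. *Zfx* and *Nrf1* lay above the median of 3 matches at the high sites. The word was picked from their sequences, so their high numbers follow from that choice and are no result.

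Composition was near in these classes, with a median GC content of 69.0% at the high sites and 66.3% at the stretches under 1.5-fold. At the high sites the other 29 words made of the same 5 letters had a median of 0.705 matches and at most 1.86, so AGGCC ranked 1 of the 30. At the sites with a height of 9 to 19 it also ranked 1, but with 1.32 against 1.30 for the highest other word. At stretches of 1.5 to 3-fold it ranked 2, with 1.14 against 1.32. At the stretches under 1.5-fold it ranked 5, and at the TSSs 12. The word was chosen on the members' sequences and counted in the same libraries, so these counts describe the sites and are no test of a binding sequence.

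**Figure D4:**
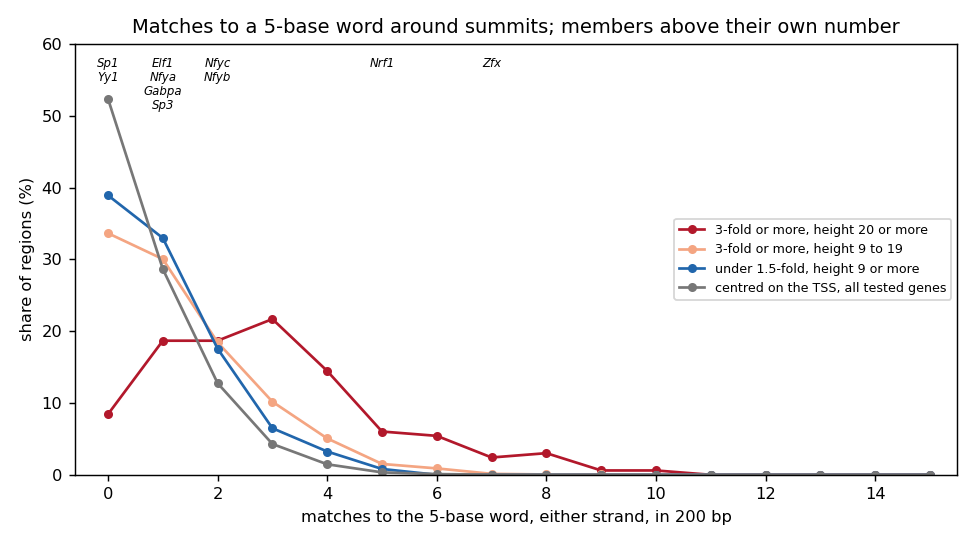
Share of regions (%) by the number of matches to the 5-base word AGGCC on either strand in 200 bp, at sites of at least 3-fold and height of at least 20 (red) or 9 to 19 (orange), at stretches under 1.5-fold (blue), all within 1000 bp of a TSS, and at TSSs themselves (grey), members left out of each class; the members are written above their own number. *Zfx* with 7 and *Nrf1* with 5 stand where the red curve is highest of the 4, but the word was picked from their sequences.

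Other genes of the same families, and further factors that bind many promoters, were taken from lists made by family. Of 66 listed genes 58 had enough reads, 8 of them (13.8%) reached 3-fold, beside 6.87% of all tested genes, and 13 of the 58 had a site, beside 16%. Their median fold was 1.38, as over all tested genes. By family, 4 of the 8 were among the 20 tested ETS genes, 3 among 24 other promoter-binding factors and 1 among 3 coactivators of Nrf1. At or past 3-fold with a site were *Ets2* and *Elk4*, ETS factors, and *Hcfc1*, a cofactor brought to promoters by several DNA-binding proteins. *Ets2* held 25 and 5 reads, a fold of 4.17 (1.57 to 13.9). *Hcfc1*, on chromosome X as *Zfx* is, held 29 and 5, a fold of 4.11 (1.57 to 13.6). *Elk4* held 32 and 10, a fold of 3.05 (1.47 to 6.97). All 3 lay below *Nrf1* and *Zfx* in fold, but the interval of each overlaps those of *Nrf1* and *Zfx*. Intervals for the ratios of these folds were not computed.

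The partner subunits of Gabpa were close to *Gabpa* itself, which had 1.82. *Gabpb1* held 32 and 14 reads, a fold of 2.08 (1.08 to 4.21), with a site of height 12, and *Gabpb2* held 38 and 16, a fold of 2.06 (1.12 to 3.97). None of the 7 other Sp genes reached 3-fold, with folds from 0.846 to 2.07, where 6.87% of all tested genes did. A site lay in the window of 2 of these 7, beside 16% of all tested genes. With so few genes nothing is read from these counts. The relatives of Zfx, *Zfy1*, *Zfy2* and *Zfp711*, had too few reads to be counted.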

How the data were processed

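Mapped reads of 2 ChIP-seq libraries from E14 cells, 1 with Zfp322a antibody and 1 with IgG, were analysed. The authors sequenced on the Genome Analyzer IIx, mapped reads of 36 bp to mm9 and deposited each with a mapping quality score, which is low where a read fits several places. The submitters' processing notes name BWA, CASAVA 1.4 and Partek 6.6 without their roles. The authors also deposited the positions of reads in numbered regions from their Partek peak detection, which form 754 distinct Zfp322a intervals and were used as an alternative. In neither library did any reads coincide in position and strand. Whether duplicates had been removed is not given in the sources used here.

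Those with a mapping quality of 25 or more were kept (80.0% and 80.1%) and counted by their 5′ ends in TSS windows of GENCODE vM1 protein-coding transcripts, whose build matches the files. A gene was tested with at least 10 reads in both libraries together. Folds carry exact conditional (Clopper-Pearson) 95% intervals, which cover counting error only, since PCR reads without molecular identifiers are not independent molecules. Reads were extended to 300 bp and stretches at most 300 bp apart were joined, which left 3875 sites among 7404 stretches, with IgG heights of 0 set to 1. Sequences were read from mm9. Over the members IgG counts ran from 6 to 16 reads, so a change of few reads can move a fold past a limit.

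The members and lists were chosen with earlier results of these data known. Named genes were the members, listed relatives of at least 3-fold with a site (at most 6), *Gabpb1* and *Gabpb2*, genes starting within 1000 bp on the other strand, and the 3 genes most alike in profile. Alternatives were all reads, the outermost TSS, other windows, scalings, fragment sizes, heights and folds, the strand test, and the deposited regions. Scripts were tested on simulated data and used samtools 1.23.1 and matplotlib 3.10.9 with pysam 0.24.0, scipy 1.17.1, pandas 2.3.3 and numpy 2.4.6 under Python 3.11.15.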

Additional observations from a re-analysis of the deposited data

How the results depend on the processing

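No paired analysis was possible because each antibody has 1 library. The count of members at or past 3-fold, 4, was 2 when each fold was divided by the median of its GC bin (*Nrf1* and *Zfx*, with 2.39% of all tested genes) and 7 with a limit of 2-fold (22.5%). It was 4 under all reads, the outermost TSS and scaling by library totals (6.48% to 7.36% of all tested genes) and 5 in the windows of -500 to +500 and -1000 to +100 bp (13% and 12.2%). Scaled by the reads 1 to 10 kb from the TSS, a setting chosen after seeing the data, it was 3, without *Elf1* (6.68%). The count of members with a site, 4, was 1 (*Nrf1*) when sites also had to pass the Mann-Whitney U test, where the share of all tested genes was 4.42%, and 3 to 5 under the other 7 settings, where it ran from 2.94% to 15.9%. The median fold of the members, 2.66, ran from 1.90 to 3.01. Of 70 member folds under the alternatives, 66 stayed inside their counting intervals. The 4 others were *Nfyc* at its outermost TSS (0.396, below 1), *Nrf1* and *Elf1* in the window of -1000 to +100 bp (3.04 and 15.8) and *Elf1* scaled by its surroundings (1.38). At this depth the interval of every member spans more than 3-fold from end to end.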

Other observations

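The mean profile of the members, Zfp322a minus IgG reads in 20 bins of 100 bp around the TSS, was compared with that of 5848 other protein-coding genes with at least 20 Zfp322a reads. The genes most alike were *N6amt1* (Pearson r = 0.846 across bins, 21 Zfp322a and 10 IgG reads), *Dnajc18* (r = 0.804, 20 and 8 reads) and *Akap8l* (r = 0.786, 30 and 13 reads). Neighbouring bins share fragments and the mean is led by *Zfx* and *Nrf1*, so these values are a description only.

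The libraries were not in a fixed ratio over the chromosomes. The ratio of Zfp322a to IgG reads ran from 0.814 on chromosome 8 to 1.23 on chromosome 9 among autosomes and was 1.41 on chromosome X. The read names give lane 3 for the Zfp322a library and lane 1 for the IgG library. Whether both lanes were of the same flow cell was not looked up, and the part of lane or preparation in these ratios was not tested. Among the members, this spread changes the fold of *Zfx* most, from 10.6 to 14.0.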
